A study of Mus musculus with 25 samples.

Results

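The SLAM locus of the mouse is a row of immune receptor genes on chromosome 1. It was defined by position, as every CpG listed in a window of 410 kb from Cd244 to Slamf6 on mm9; the first listed CpG starts at 173480625 and the last at 173871063. All coordinates of CpGs and tiles below are on mm9. The locus held 166 of the 2100083 CpGs listed in any of the 25 libraries. The window is set by position alone, but the locus was chosen with earlier results of these data known. At least 5 reads were found at 127 of the 166 CpGs in 1 or more libraries, while 39 CpGs never reached that depth. Only 32 CpGs had 5 reads in all 25 libraries. The listed CpGs fell into 36 short stretches with gaps of at most 500 bp inside a stretch, and 13 stretches held a CpG shared by all libraries.

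The signalling lymphocytic activation molecule (SLAM) receptors are surface proteins of blood cells, and most of them bind another copy of themselves on a neighbouring cell. Most of them have cytoplasmic tails that recruit adaptor proteins of the SAP family, while CD48 is held by a lipid anchor and has no such tail. Slamf1 encodes CD150 and Cd48 encodes CD48, and mouse haematopoietic stem cells (HSCs) are commonly sorted as cells with CD150 and without CD48. Cd244 encodes 2B4, the receptor that binds CD48 and is also absent from most mouse HSCs. Ly9 encodes CD229, Cd84 the receptor CD84, Slamf6 the receptor Ly108 and Slamf7 the receptor CRACC. Along the chromosome the order is Cd244, Ly9, Slamf7, Cd48, Slamf1, Cd84 and Slamf6.

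Methylation was measured by reduced representation bisulfite sequencing (RRBS), which reads CpGs near the cut sites of a restriction enzyme. The value of a CpG or tile is the percent of its reads that were methylated. The cells were labelled HSCs of C57Bl/6 mice, and the design asked how their methylation changes during ontogeny and after a forced proliferative history. Fetal HSCs came from liver at e14.5 (n = 2), young HSCs from bone marrow at 3.5 months (n = 2) and old HSCs from bone marrow at 25 months (n = 2). The 5-fluorouracil (5-FU) groups were bone marrow HSCs of mice kept for 6 months beyond 3.5 months, with 0 (n = 3), 2 (n = 3) or 4 (n = 2) doses. 5-FU kills dividing cells, and surviving HSCs then enter the cell cycle. Transplanted groups were bone marrow HSCs after transplantation of 10 (n = 3), 50 (n = 1) or 500 (n = 1) young HSCs, or of 10 (n = 2), 50 (n = 1) or 500 (n = 3) old HSCs. The labels give no genotype, no interval and no recipient for the transplants, and name no surface markers for the sort. The files hold methylation and no expression, so the labelled cell type could not be checked against its markers.

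The libraries differed in ways that touch these comparisons. They held 22835325 to 105187091 reads, with both young libraries the deepest, and 63 to 117 locus CpGs with 5 reads. The 3 libraries with 0 doses of 5-FU had their deepest CpG at 63841 to 74120 reads, against at least 101345 in every other library. At 67 CpG-rich autosomal tiles of intermediate methylation, the young libraries averaged 40.4% to 41.5% and the fetal ones 39.5% to 41.1%, against 43.6% to 53.8% in all other libraries. The part of this offset in any result below was not tested beyond a refit with it removed. Nothing in the labels says that replicates were separate animals, so p-values measure the spread between these libraries.

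RRBS can only read the locus near the sites where the enzyme cuts. RefSeq promoters on GRCm38.p6, 300 bases long, were matched for 6 of the 7 genes, all but Ly9. They held 2 CpGs for Cd244, 3 for Slamf7, 7 for Cd48, 4 for Slamf1, 3 for Cd84 and 1 for Slamf6, where the median of all 32851 promoters was 7. The sequence CCGG, the site of MspI, the enzyme usually used for RRBS, was present once in Cd48 and once in Slamf1 and was not found in the other 4. It reads the same on both strands, it contains a CpG, and 52.8% of all promoters of that length held it. The enzyme is not named in the labels. Both promoters with a site are shown because they belong to the genes used for sorting HSCs. They run from 250 bases before the start to 30 after it, with each CG in capitals.
Cd48: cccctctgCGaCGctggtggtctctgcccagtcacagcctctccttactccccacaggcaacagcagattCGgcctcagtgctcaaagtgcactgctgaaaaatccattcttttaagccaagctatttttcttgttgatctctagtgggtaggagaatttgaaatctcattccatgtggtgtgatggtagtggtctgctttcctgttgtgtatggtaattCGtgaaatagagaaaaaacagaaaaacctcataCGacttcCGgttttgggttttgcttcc
Slamf1: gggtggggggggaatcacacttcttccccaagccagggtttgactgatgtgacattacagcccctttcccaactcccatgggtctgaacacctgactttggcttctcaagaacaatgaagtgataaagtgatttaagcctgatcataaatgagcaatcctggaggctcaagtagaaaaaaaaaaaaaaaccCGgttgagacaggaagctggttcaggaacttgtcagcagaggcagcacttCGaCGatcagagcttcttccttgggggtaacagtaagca
Cd48 has 6 CpGs in this stretch and Slamf1 has 3. No genome or annotation of mm9 was used here, so the CpGs and tiles below are named by position and are not assigned to a gene, exon, intron or promoter.

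The locus was mostly methylated, with a few low stretches. Of the 32 shared CpGs, 18 were over 60% in every one of the 12 groups, 5 were under 20% in every group and 9 were neither. The 5 low CpGs formed 2 stretches near the ends of the locus. At the Cd244 end, the CpG at chr1:173492123-173492124 had group means of at most 6.11%, and its neighbour at chr1:173492183-173492184 had 10.8% in fetal and 10.96% in old HSCs. At the Slamf6 end, the CpG at chr1:173851174-173851175 reached at most 8.55%, in the group with 10 transplanted old HSCs. Between them, the stretch of 14 CpGs at chr1:173760377-173760561 was the best covered. Over its 7 shared CpGs it read between 82.0% and 92.8% in all 12 groups, so it was high throughout. It averaged 92.4% in young HSCs and 85.8% after 10 young HSCs, and 92.8% in old HSCs and 83.4% after 10 old HSCs.

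**Figure D1:**
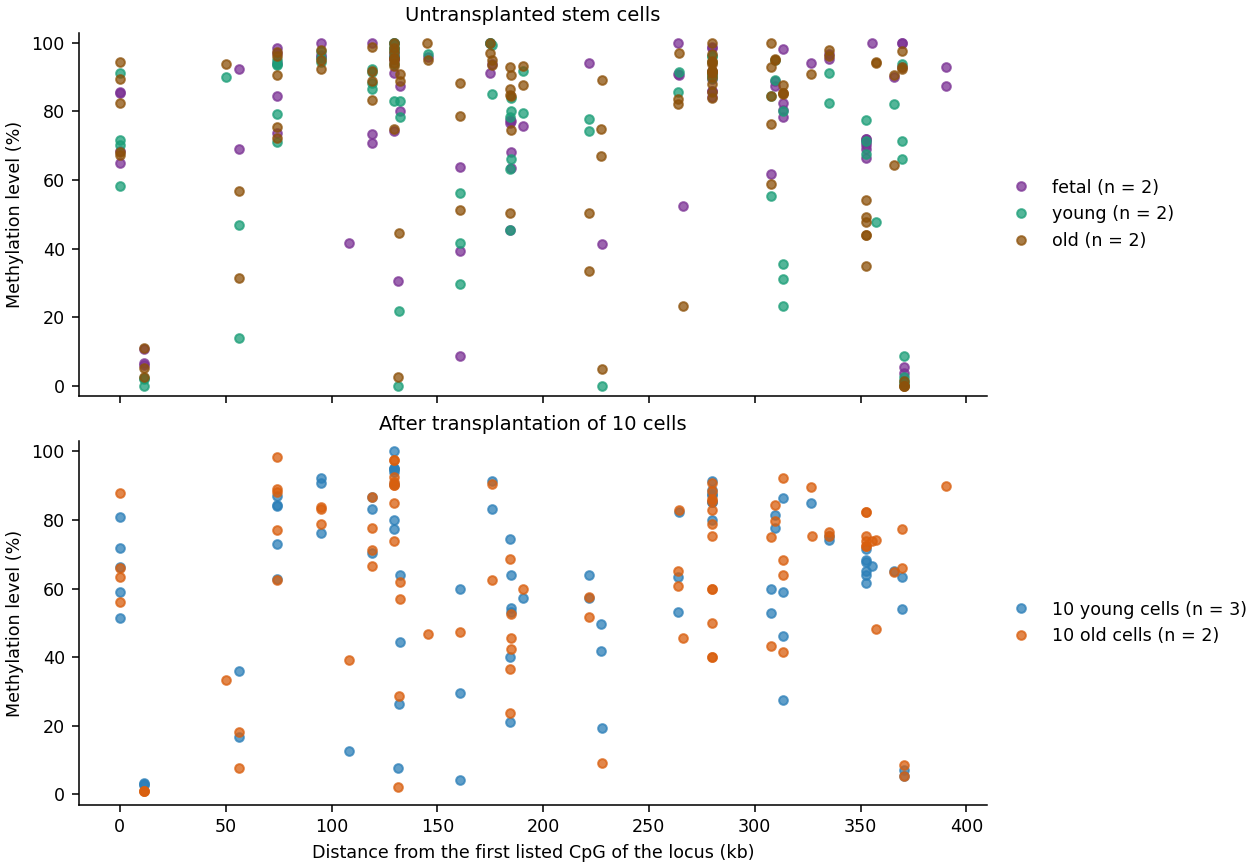
Methylation level (%, mean of libraries) of each CpG of the SLAM locus against its distance in kb from the first listed CpG, for fetal, young and old HSCs (top) and after transplantation of 10 young or 10 old HSCs (bottom). Each point is a CpG read 5 times or more in all libraries of its group. The low points near both ends are the 2 stretches under 20%, and single CpGs between them spread widely.

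Summed over the 32 shared CpGs, the locus level was lower in the transplanted libraries than in most others. In fetal HSCs it was 68.7% and 69.6%, in young HSCs 63.4% and 64.7%, and in old HSCs 73.0% and 67.1%. With 0 doses of 5-FU it was 71.0%, 68.4% and 64.3%, with 2 doses 68.3%, 69.5% and 69.7%, and with 4 doses 67.2% and 54.5%. The 2 libraries with 4 doses were thus farther apart than any other replicates, and they were also the shallowest here, with 710 and 666 reads. After transplantation of 10 young HSCs the level was 54.2%, 59.95% and 57.2%, and after 10 old HSCs 58.6% and 62.8%. After 500 old HSCs it was 64.1%, 59.8% and 66.7%.

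Groups of 1 library are given with Wilson 95% intervals, which cover counting error only. The level was 56.8% (54.4 to 59.1) after 50 young, 57.6% (54.9 to 60.3) after 500 young and 60.6% (58.3 to 63.0) after 50 old HSCs. The 11 transplanted libraries thus spanned 54.2% to 66.7%. The 14 others spanned 63.4% to 73.0%, apart from the 4-dose library at 54.5%, so the 2 sets overlap. For the same reason as the choice of locus, no p-value is given for this level.

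CpG-poor tiles of the autosomes moved in the same direction with transplantation. From young HSCs to those after 10 young HSCs, the locus went from 64.0% ± 0.924 (SD, n = 2) to 57.1% ± 2.89 (n = 3). The autosomal tiles with under 10 CpGs went from 59.9% ± 1.76 to 55.7% ± 2.38. From old HSCs to those after 10 old HSCs, the locus went from 70.0% ± 4.15 (n = 2) to 60.7% ± 2.91 (n = 2), and these tiles from 68.6% ± 0.543 to 58.2% ± 2.49.

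**Figure D2:**
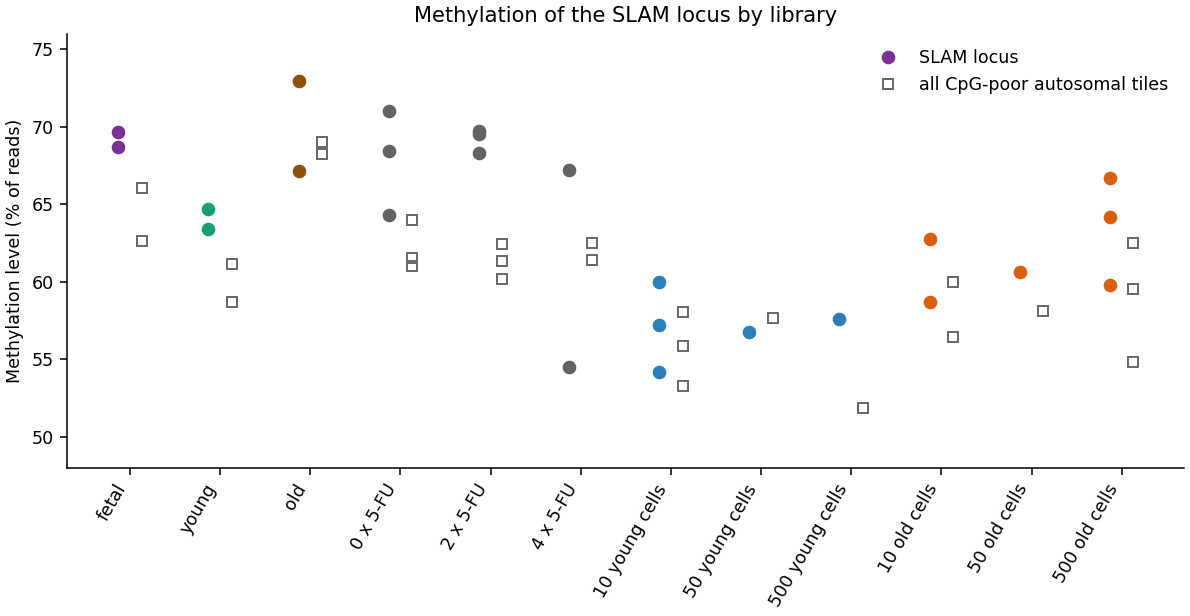
Methylation level (% of reads) of each library, by group, over the 32 shared CpGs of the SLAM locus (filled circles) and over all CpG-poor autosomal tiles (open squares). The vertical axis starts at 48%. Transplanted libraries (right) sit between 54.2% and 66.7% at the locus.

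The unit of testing was a tile of 1000 bp with 3 or more CpGs, each read 5 times or more in all libraries fitted together. A call needed both an adjusted p below 0.05 and group means 10 or more percentage points apart. The locus held 13 such tiles for fetal, young and old HSCs, 6 for young and the 5-FU groups, and 11 for the transplanted groups, each with 3 to 7 CpGs. Adjusted p-values are from the quasi-binomial test with limma's moderation of the dispersion, adjusted by Benjamini-Hochberg over all tiles of the genome. In the 8 comparisons, 6 tiles of the locus changed at least once, and in every such call the libraries of the 2 groups did not overlap.

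Between fetal and young HSCs, 2 of 13 tiles fell and none rose, against 7.03% of all tiles called (4.58% lower) and 7.74% of tiles with 3 to 9 CpGs. The tile at chr1:173794001-173795000, toward the Slamf6 end, fell from 84.9% and 86.8% in fetal to 33.3% and 39.2% in young HSCs. The difference was -49.6 points (adjusted p = 4.28e-05). At chr1:173850001-173851000 the level fell from 96.4% and 98.97% to 80.4% and 82%, a difference of -16.5 points (adjusted p = 0.0191). This call was lost without fetal replicate 1, young replicate 1 or young replicate 2 (adjusted p = 0.411, 0.0556 and 0.0560). One more tile, chr1:173641001-173642000 in the middle of the locus, read 52.3% and 57.1% in fetal and 37.3% and 30.4% in young HSCs but was not called (-20.8 points, adjusted p = 0.0561). The median difference of the 13 tiles was -1.26 points, and that of all tiles 0.176.

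Between young and old HSCs, 2 of 13 tiles rose and none fell, against 4.98% of all tiles called (4.66% higher) and 5.66% of tiles with 3 to 9 CpGs. The tile at chr1:173794001-173795000 rose to 86.0% and 84.7% in old HSCs, a difference of 49.1 points (adjusted p = 1.08e-04). Its level in old HSCs was thus near that of the fetal libraries, and young HSCs stood apart. At chr1:173641001-173642000 it rose from 37.3% and 30.4% to 76.2% and 73.3%, by 40.9 points (adjusted p = 2.14e-04). Old HSCs read 92.6% and 95.4% at chr1:173850001-173851000, and the 12.8 points above young HSCs did not pass (adjusted p = 0.173). The median difference was 1.64 points over the locus and 1.54 over all tiles. Both comparisons use the same 2 young libraries, so a tile low in young HSCs enters each of them.

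At the CpG chr1:173641228-173641229, which carries most of the reads of its tile, the level was 58.8% and 68.9% in fetal, 32.7% and 26.8% in young and 78.5% and 78.7% in old HSCs. The 8 libraries of the 5-FU groups lay between 68.8% and 100%, all above the young ones. After transplantation of 10 young HSCs it read 57.1%, 52.1% and 70.4%, and after 10 old HSCs 44.9% and 50.0%. The young level therefore lay below the 10 young group and the old level above the 10 old group. The single library with 50 young HSCs read 51.4%, but that with 500 young HSCs read 18.2%, below both young libraries, from 2 methylated of 11 reads. Among locus CpGs with 10 reads in all 25 libraries, this one had the widest range of group means, 69.8 points, from that library to the 4-dose group. Over the 9 groups of 2 or more libraries the range was 58.3 points.

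Tile chr1:173833001-173834000 shows the limit of 2 libraries per group. The old libraries read 23.8% and 68.9% there, from 21 and 45 reads, while the young ones read 73.3% and 71.2%, from 15 and 52 reads. Its difference of -25.9 points did not pass (adjusted p = 0.444).

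Mice kept 6 months longer without 5-FU had a high level at the tile that was low in young HSCs. With 0 doses, chr1:173794001-173795000 read 89.3%, 85.4% and 87.2%, a difference of 51.0 points from young HSCs (adjusted p = 0.0229). It was the 1 tile of 6 called, against 0.797% of all tiles (0.678% higher) and 0.673% of tiles with 3 to 9 CpGs. That call was lost without any 1 of the 5 libraries (adjusted p 0.0715 to 0.355), with the difference between 48.04 and 53.9 points. The median difference was 1.14 points for the 6 tiles and 0 for all tiles. The other 5 tiles lay within -3.32 to 2.18 points of young HSCs.

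No tile of the locus was called between doses of 5-FU. With 2 doses against 0, 0 of 6 tiles passed, against 0.0682% of all tiles called and 0.0645% of those with 3 to 9 CpGs. At an unadjusted p under 0.05 there were 0 of 6, against 7.63% of all tiles. With limma 0 of 6 were called, against 0.313% of all tiles. With 4 doses against 0 these counts were also 0 of 6. The shares were 0.0105% of all tiles and 0.0143% of those with 3 to 9 CpGs. They were 10.9% of all tiles at an unadjusted p under 0.05 and 1.11% with limma. The tile at chr1:173794001-173795000 read 85.9%, 83.6% and 75.98% with 2 doses and 78.0% and 92.3% with 4 doses. The 6 differences ran from -6.85 to -0.71 points for 2 doses and from -3.76 to 4.12 points for 4 doses. With 6 tiles covered in all 10 libraries, most of the locus was not tested for 5-FU.

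Most tested tiles were lower after transplantation, as were most tiles of the genome. After 10 young HSCs, 9 of 11 tiles were lower than in young HSCs and 2 higher. The median was -8.99 points, against -4.43 for all tiles and -6.74 for tiles with 3 to 9 CpGs. Of the 11, 3 were called, 2 lower and 1 higher, where 21.1% of all tiles (19.8% lower, 1.31% higher) and 27.2% of tiles with 3 to 9 CpGs were called. After 10 old HSCs, 10 of 11 were lower than in old HSCs. The median was -7.30 points, against -6.41 for all tiles and -8.87 for tiles with 3 to 9 CpGs. Of these 11, 2 were called, both lower, where 26.4% of all tiles (25.7% lower) and 33.9% of tiles with 3 to 9 CpGs were called. After 500 old HSCs, 8 of 11 were lower. The median was -4.09 points, against -3.82 for all tiles and -5.55 for tiles with 3 to 9 CpGs. Again 2 were called, both lower, where 11.5% of all tiles (11% lower) and 14.8% of tiles with 3 to 9 CpGs were called. These counts moved with the fit, as did the shares of all tiles. With the library offset removed, 7, 4 and 2 of 11 locus tiles were called, all lower, against 36.7%, 29.5% and 11% of all tiles. Fits of only the groups compared called 1 of 13, 5 of 13 and 4 of 14, all lower, against 12.5%, 34.3% and 15.4%. Leaving out 1 library at a time gave 0 to 3 calls for 10 young, 1 for 10 old and 0 to 2 for 500 old HSCs. The 2 comparisons with old HSCs share the 2 old libraries.

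**Figure D3:**
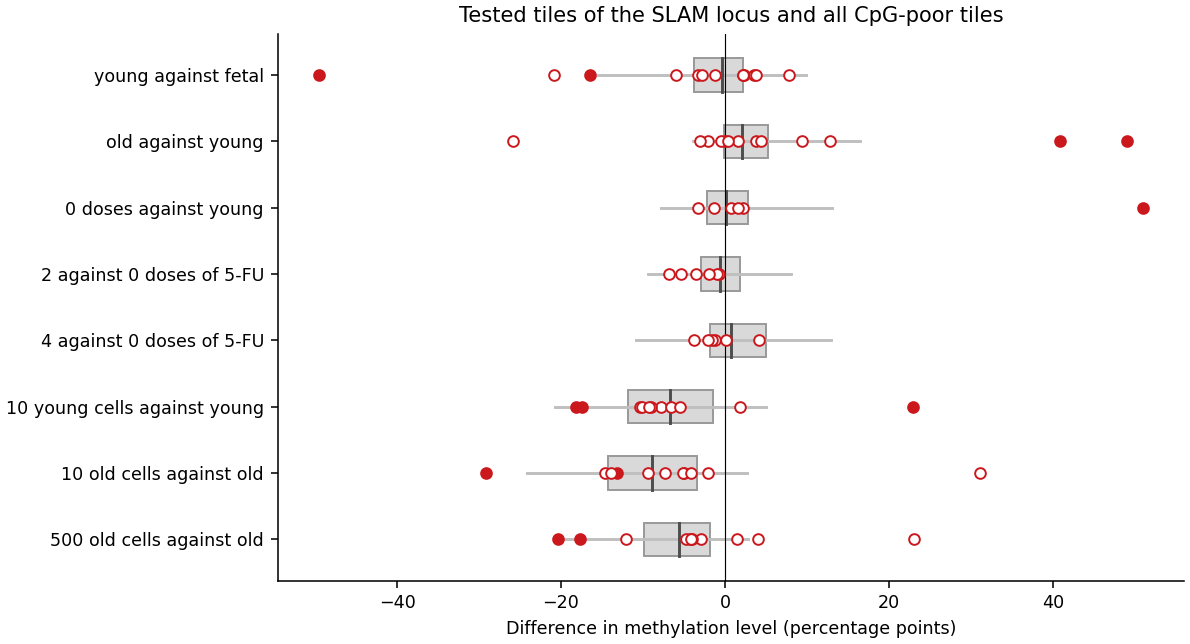
Differences in methylation level (percentage points, first group minus second) in the 8 comparisons. Circles are tested tiles of the SLAM locus, filled where called; grey bars span the quartiles of all tiles with 3 to 9 CpGs, with their median, and grey lines the 5th to 95th percentiles. In the 3 transplant comparisons the grey medians lie at -6.74, -8.87 and -5.55 points, and most circles lie below 0 too.

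Of the tiles with 3 or more shared CpGs, chr1:173665001-173666000, in the middle of the locus, was called lower in all 3 transplant comparisons. Over its 6 shared CpGs it averaged 59.7% ± 2.46 (SD, n = 2) in young and 69.1% ± 0.731 (n = 2) in old HSCs. After 10 young HSCs it averaged 42.3% ± 4.22 (n = 3), a difference of -17.4 points (adjusted p = 0.00919). After 10 old HSCs it averaged 39.9% ± 0.353 (n = 2), a difference of -29.2 points (adjusted p = 0.00146), and after 500 old HSCs 48.7% ± 6.94 (n = 3), a difference of -20.4 points (adjusted p = 0.00751). Old HSCs started higher than young ones (9.41 points, adjusted p = 0.187), and the levels after 10 cells were within 2.36 points of each other. Without young replicate 1 or 2, the first difference was not called (adjusted p = 0.0631 and 0.0692), and the last was not called without old replicate 1, old replicate 2 or 500-cell replicate 1 (0.109, 0.0539 and 0.0506).

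Within that tile the CpG at chr1:173665169-173665170 was read by 42 to 223 reads in each library. It lay between 29.5% and 50.5%, with a median of 44.3%, in the 14 libraries that were not transplanted, and between 16.1% and 37.6%, with a median of 24.6%, in the 11 transplanted ones. All 5 libraries from young donors were at or below 29.3%, just under the lowest untransplanted library, a 4-dose one. The libraries above that value were 2 of the 3 with 500 old HSCs, at 33.0% and 37.6%.

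Tile chr1:173612001-173613000 fell after 10 young HSCs, from 49.2% and 53.5% to between 30% and 38.8%, a difference of -18.1 points (adjusted p = 0.0413). Against old HSCs, at 42.4% and 51.4%, the 10 old libraries read 56.6% and 33.0%, which straddle them, and the 500 old libraries 38.8%, 36.4% and 29.3% (adjusted p = 0.573 and 0.161). The young call was not kept without young replicate 1 or 2, or without 10-cell replicate 2 or 3 (adjusted p 0.0869 to 0.149). Within the tile, chr1:173612996-173612997 is a CpG singled out after its values were seen. It read 82.2% to 90.2% in the 6 fetal, young and old libraries and 39.0% to 65.9% in the 11 transplanted ones, which do not overlap. With 5-FU or its 0-dose control, 7 of 8 libraries lay between 69.3% and 96.0%, and 1 library with 4 doses, with 8 reads, was at 12.5%.

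Tile chr1:173575001-173576000, toward the Cd244 end, fell after 10 old HSCs from 94.5% and 95.9% to 83.1% and 80.9%, a difference of -13.2 points (adjusted p = 0.0258). After 10 young HSCs its difference from young HSCs was -8.99 points, with an adjusted p of 0.0333, which is under the 10 points required. Without any 1 of its 4 libraries, the first difference was between -14.3 and -12.1 points and was not called (adjusted p 0.0552 to 0.159). Across all libraries the tile read 90.7% to 100% without transplantation and 74.0% to 91.5% with it. The 100% came from 6 reads at 1 CpG, in a library with 4 doses of 5-FU. Tile chr1:173760001-173761000, with 7 shared CpGs, also stayed under the 10 points required. Its differences were -6.57 points after 10 young HSCs (adjusted p = 0.0463) and -9.38 points after 10 old HSCs (adjusted p = 0.0251). After 500 old HSCs the difference there was -4.09 points (adjusted p = 0.220).

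Pooled over its CpGs, the tile at chr1:173794001-173795000 moved one way for young donors and the other for old ones. After 10 young HSCs it read 67.7%, 59.3% and 50.6%, which is 22.9 points above young HSCs (adjusted p = 0.0431). At its CpGs starting at 173794108, 173794195, 173794203 and 173794219, young means were 80%, 31.1%, 35.4% and 23.3%. After 10 young HSCs they were 86.4%, 58.96%, 46.1% and 27.5%, so the rise was widest at 173794195 and smallest at 173794219. At 173794195 the libraries with 10 young HSCs spread from 41.2% to 85.7%. After 10 old HSCs the tile read 69.0% and 73.8%, a difference of -13.9 points from old HSCs, which did not pass (adjusted p = 0.0579). After 500 old HSCs it read 59.7%, 69.9% and 73.5%, a difference of -17.6 points (adjusted p = 0.0258). All 11 transplanted libraries thus lay between 50.6% and 73.8%, above the 2 young libraries and below every other library that was not transplanted. These levels pool reads over the tile's CpGs. The single library with 500 young HSCs, at 55.8%, read 88%, 33.3%, 0% and 0% at those CpGs in turn. It was above the young means at the CpGs starting at 173794108 and 173794195, but below them at 173794203 and 173794219.

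The difference between the donor ages at this tile, 36.9 points, did not pass over all tiles (adjusted p = 0.317). That test of the interaction was added after the values were seen. It called 0 of 11 locus tiles and 0.0332% of all tiles. Under an unadjusted p of 0.05 there were 2 locus tiles, but the share of all tiles at that threshold was not computed. No other tool was run. Single libraries read 55.6% (Wilson 95% interval 45.7 to 64.95) after 50 young, 55.8% (41.1 to 69.6) after 500 young and 65.2% (53.1 to 75.5) after 50 old HSCs.

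The young libraries, the deepest over the genome, were among the shallowest at this tile. They had 33 and 51 reads there, next to 34 to 257 reads in the others. The young level nevertheless has Wilson 95% intervals of 19.8% to 50.4% and 27.0% to 52.9%, both under the lowest level of the fetal, old and 5-FU libraries, 75.98%. Against fetal and old HSCs the call was kept in each of the 12 alternatives that tested the same 1000-bp tile. Against young HSCs, the rise after 10 young HSCs was not called without young replicate 1 (20 points, adjusted p = 0.158) or 2 (25.9 points, 0.169), or without 10-cell replicate 1 (18.7 points, 0.114) or 2 (22.9 points, 0.0667). With the library offset removed it was 14.2 points (adjusted p = 0.139). The fit of only the groups compared and the fit of all 25 libraries did not call this rise either. In the fit of all 25 libraries, the fall after 500 old HSCs was also not called. The fall after 500 old HSCs was not called without old replicate 1 or 2, or without 500-cell replicate 1 or 2 (adjusted p 0.0521 to 0.185).

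The levels differed among the 4 CpGs of this tile. The first, chr1:173794108-173794109, read 77.1% to 100% in all 25 libraries. Both young libraries were at 80% there, each from 5 reads, below the fetal ones at 96.4% and 100% and below the old ones at 90% and 80.6%. The other 3 lie 87, 95 and 111 bp farther on. At the last, chr1:173794219-173794220, the young libraries read 20% and 26.7%, against 73.3% to 94.7% in the fetal, old and 5-FU libraries. After transplantation its median over 11 libraries was 27.8% and its highest value 72.0%, in a library with 500 old HSCs. At the first CpG the same 11 libraries had a median of 84.6%, so CpGs within 111 bp differed in level in the same libraries.

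**Figure D4:**
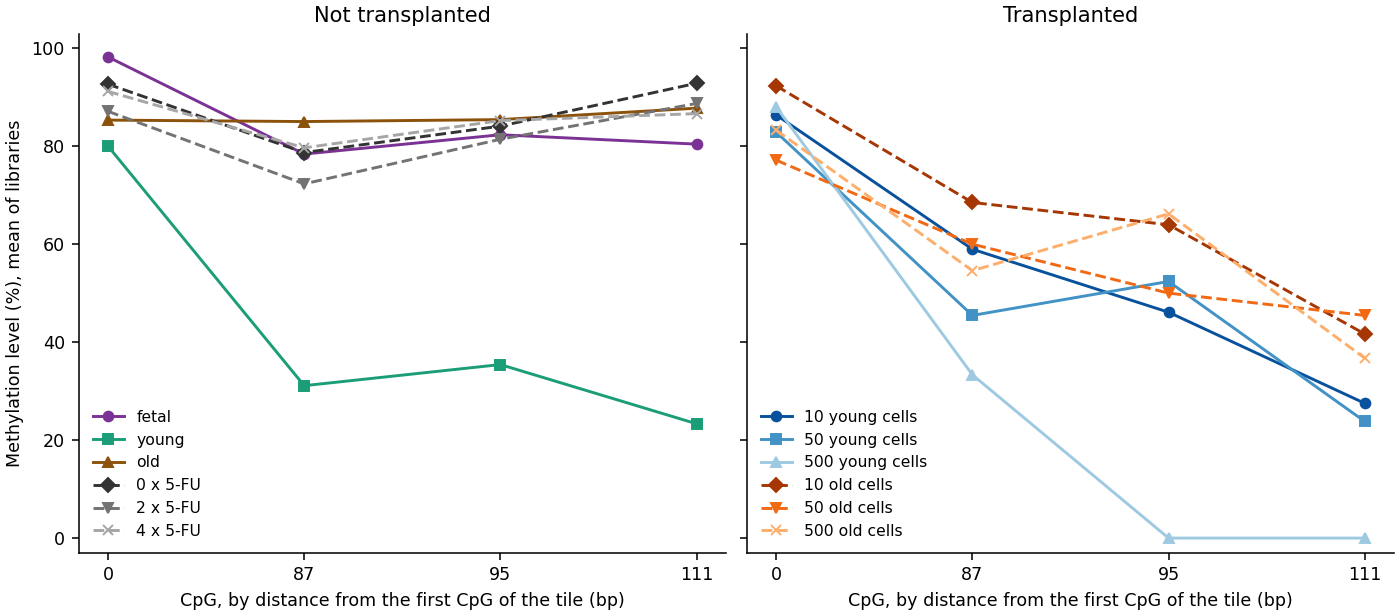
Methylation level (%, mean of libraries) at the 4 CpGs of the tile 313 kb from the first CpG of the locus, by distance in bp from the tile's first CpG, for groups without (left) and with (right) transplantation. All groups are high at the first CpG; young HSCs are low at the next 3, and transplanted groups fall toward the last one.

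**Figure D5:**
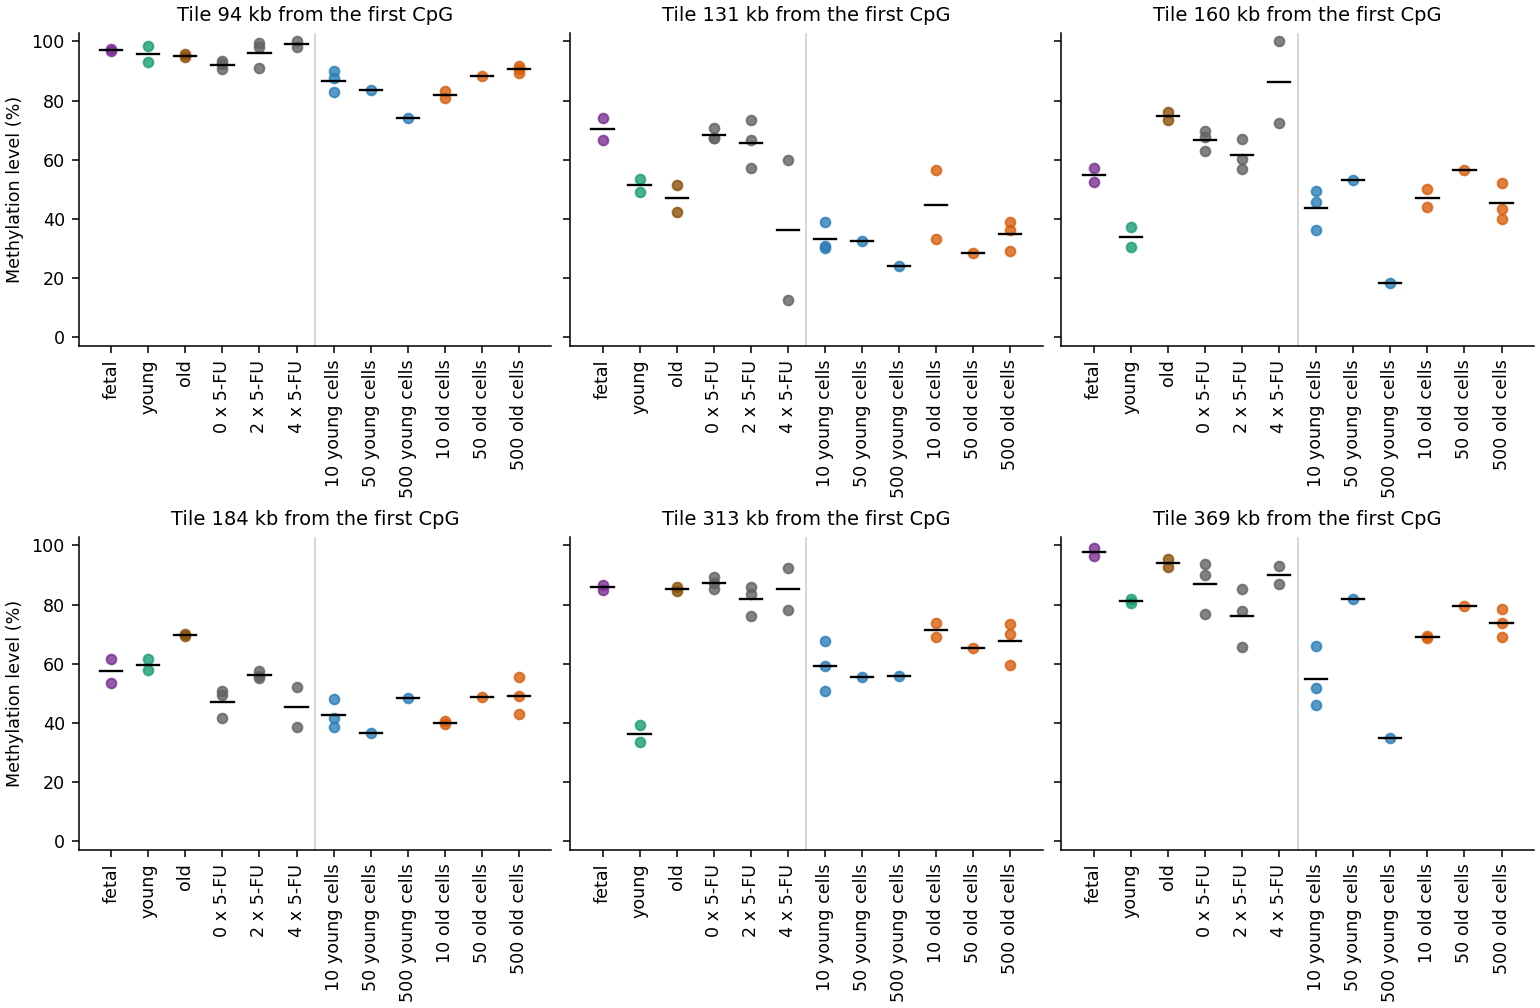
Methylation level (%) of the 6 tiles that were called in at least 1 comparison, by group, each over a library's own CpGs with 5 reads. Points are libraries and bars the group means; the vertical line parts groups without and with transplantation. At the tile 313 kb along, the 2 young libraries are at 33.3% and 39.2% and the 11 transplanted ones between 50.6% and 73.8%.

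Counting single CpGs rather than tiles covers more of the locus. Of 88 CpGs with 5 reads in each old and 10 old library, 71 were lower after transplantation and 17 higher, with a median of -13.8 points. That is 80.7% lower and 19.3% higher, with 59.1% lower by 10 points or more. Over all 1150125 such CpGs of the genome 69.7% were lower and 15.7% higher, with 27.9% lower by 10 points or more and a median of -2.90 points. For 10 young HSCs against young ones, 59 of 74 CpGs (79.7%) were lower and 15 higher, with 32.4% lower by 10 points or more and a median of -6.94 points. Over all CpGs these values were 65.8% lower, 20.2% lower by 10 points or more and -1.28 points. For 500 old HSCs against old ones, 53 of 79 CpGs (67.1%) were lower and 26 higher, with 39.2% lower by 10 points or more and a median of -4.10 points. Over all CpGs, 66.3% were lower, 17.8% were lower by 10 points or more and the median was -2.00 points. These are descriptions of neighbouring CpGs that share reads. The values over all CpGs include CpG-rich tiles, and no such shares were computed for CpG-poor tiles alone. The medians of tested tiles with 3 to 9 CpGs were -8.87 points after 10 old, -6.74 after 10 young and -5.55 after 500 old HSCs. The tested locus tiles had medians of -7.30, -8.99 and -4.09 points.

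The other single CpGs with wide ranges did not separate the groups cleanly. At chr1:173480883-173480884, at the Cd244 end, group means ran from 35.3% (4 doses, at 53.8% and 16.7%) to 70.8% (500 old HSCs). Its neighbour at chr1:173480880-173480881 ran from 38.5% in the single library with 500 young HSCs to 73.7% in that with 50 young HSCs. At chr1:173760485-173760486 the means ran from 74.1% with 50 young HSCs to 98.5% in fetal HSCs, with all the others between 87.4% and 92.9%.

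Tiles with 1 or 2 shared CpGs add other places of the locus, in an alternative fit that needs only 1 CpG per tile. It called 4 of 29 locus tiles for young against fetal (4.97% of all tiles), 2 of 29 for old against young (3.69%), 7 of 26 after 10 young (24.4%), 8 of 26 after 10 old (30.6%) and 6 of 26 after 500 old HSCs (11%). After 10 young HSCs, 3 were higher and 4 lower (0.908% and 23.4% of all tiles), while after 10 or 500 old HSCs all were lower. Those after 10 young HSCs included chr1:173708001-173709000 (1 CpG, 19.4 points) and chr1:173744001-173745000 (2 CpGs, -25.0 points). Both had few reads and a wide spread. The first averaged 0% (n = 2) in young HSCs and 19.4% ± 18.3 (SD, n = 3) after 10 young HSCs, with as few as 6 reads in a library. The second averaged 88.4% ± 5.86 (n = 2) and 63.4% ± 20.6 (n = 3), with as few as 16 reads. Between 0 doses and young, and between doses, the alternative fit called 0 of 15 (0.00148%, 0.00148% and 0% of all tiles), where the 1000-bp tiles with 3 CpGs had called 1, 0 and 0. The 2 CpGs of chr1:173536001-173537000 averaged 77.1% ± 7.17 (SD, n = 2) in fetal and 28.0% ± 6.47 (n = 2) in young HSCs, a difference of -49.1 points (adjusted p = 0.00206 in the quasi-binomial test moderated with limma). In old HSCs they averaged 44.2% ± 1.84 (n = 2), against 14.2% ± 11.5 (n = 2) after 10 old HSCs (adjusted p = 0.0187) and 16.5% ± 2.64 (n = 3) after 500 old HSCs (adjusted p = 0.0194). After 10 young HSCs they averaged 26.1% ± 9.71 (n = 3), -1.84 points from young HSCs (adjusted p = 0.704). Fetal HSCs were thus the highest of these groups at this tile.

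At chr1:173850001-173851000, 2 CpGs were shared with the transplanted libraries. They averaged 82.9% ± 6.09 (n = 2) in young HSCs and 55.3% ± 13.7 (n = 3) after 10 young HSCs, a difference of -27.5 points (adjusted p = 0.0200). In old HSCs they averaged 92.6% ± 1.48 (n = 2), against 69.1% ± 0.242 (n = 2) after 10 old HSCs (adjusted p = 0.0200) and 75.99% ± 5.31 (n = 3) after 500 old HSCs (adjusted p = 0.0455). Over each library's own CpGs of the tile, young HSCs read 82% and 80.4%. The single library with 50 young HSCs read 82% there, from 50 reads. Those with 500 young and 50 old HSCs read 34.8%, from 23 reads, and 79.5%, from 73 reads.

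At chr1:173641001-173642000, 1 CpG was shared. It averaged 29.7% ± 4.19 (n = 2) in young HSCs and 59.9% ± 9.44 (n = 3) after 10 young HSCs (adjusted p = 0.0174), but 78.6% ± 0.130 (n = 2) in old HSCs and 47.5% ± 3.59 (n = 2) after 10 old HSCs (adjusted p = 0.00921). Here too the value was higher after 10 young and lower after 10 old HSCs than in the donors' age groups, although the single library with 500 young HSCs, at 18.2%, was lower than the young ones. The difference between donor ages at this CpG, 61.3 points, did not pass over all tiles with 1 or more CpGs (adjusted p = 0.114 in the moderated quasi-binomial test). That fit, also added after the values were seen, called 0 of 26 locus tiles and 0% of all tiles. Under an unadjusted p of 0.05 there were 4 locus tiles, with no share of all tiles computed at that threshold. No other tool was run.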

How the data were processed

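RRBS methylation of mouse HSCs was available for 25 libraries in 12 groups, named from the labels. For each CpG the deposited files give position, strand, reads methylated over all reads, and a score. The authors' deposited score is a whole number that equals the methylated share scaled to 1000; it was checked and not tested. The submitters' processing notes name mm9 as the build. How reads were aligned, called and filtered for duplicates is not stated in the labels.

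Reads were summed in tiles of 1000 bp over CpGs read 5 or more times throughout a fit, and autosomal tiles with 3 or more such CpGs were tested. A quasi-binomial model had a mean per group and Williams' weights. Dispersions were moderated with limma 3.58.1 along a trend on depth, with a floor of 1. The F test's p-values had a Benjamini-Hochberg adjustment over every tile of a fit. The fits covered 100896 tiles (fetal, young, old; 6 libraries), 57204 (young, 5-FU; 10 libraries) and 90382 (young, old, transplanted; 15 libraries). A group of 1 library entered the last fit with no comparison of its own. The fits were tested on simulated data. Wilson intervals of 95% cover counting error only, since reads are not independent molecules.

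The genes of the locus, the comparisons and the rules were chosen with earlier results of these data known. The rule named every locus tile called in any of the 8 comparisons, and the 5 CpGs with at least 10 reads in all 25 libraries and the largest range of group means. Alternatives were another depth minimum, tile size, number of CpGs per tile, difference, test, set of libraries, left-out replicates, very deep CpGs left out, a replicate block and the library offset removed. The interaction of donor age and transplantation was added after the values were seen. Analyses used Python 3.11.15 and R 4.3.3. Promoters are RefSeq's, on GRCm38.p6, with Cd244 listed there as Cd244a.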

Additional observations from a re-analysis of the deposited data

How the results depend on the processing

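At the locus tiles called in at least 1 comparison, no called difference changed sign in an alternative that tested the same 1000-bp tile. Differences that were never called were not followed for sign. The mix of directions did vary for 10 young cells. The calls were 1 higher and 2 lower as reported, 1 higher and 0 lower at 20 points, and 0 higher and 7 lower with the library offset removed. The share of all tiles called in the same setting stands in brackets. Requiring 10 reads per CpG left 8, 4 and 5 locus tiles in the 3 fits, and the calls were 0 for young against fetal (6.9%), 0 for old against young (4.2%), 0 for 0 doses against young (1.71%), and 1 each for 10 young (19.2%), 10 old (22.6%) and 500 old cells (9.74%). At a difference of 20 points, 1 tile was called for young against fetal (3.38%) and 1 each for 10 young (4.54%), 10 old (7.67%) and 500 old cells (3.42%). The 10 young call was a rise, where 0.362% of all tiles were called higher, and the 10 old and 500 old calls were falls. With 300-bp tiles there was 1 call for young against fetal (5.92%), 1 for old against young (3.56%), 0 for 0 doses against young (0.981%) and 1 for 500 old cells (6.48%). With 1 CpG per tile, 4 of 29 tiles were called for young against fetal (4.97%), 0 of 15 for 0 doses against young (0.00148%), 7 of 26 for 10 young (24.4%), 8 of 26 for 10 old (30.6%) and 6 of 26 for 500 old cells (11%). Of the 7 for 10 young cells, 3 were higher and 4 lower. A fit of only the groups compared called 2 for 0 doses against young (1.8%), 1 for 10 young (12.5%), 5 for 10 old (34.3%) and 4 for 500 old cells (15.4%). A fit of all 25 libraries, with 5 locus tiles, called 1 for young against fetal (3.66%), 1 for old against young (0.507%) and 0 each for 10 young (10.3%), 10 old (12.3%) and 500 old cells (2.57%). Fewer tiles or libraries are part of these last settings; otherwise the cause was not tested. limma called 4 for 10 old cells (27.8%). With the library offset removed, 7 tiles were called for 10 young cells (36.7%), all lower, and 4 for 10 old cells (29.5%).

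Leaving out 1 library at a time gave 1 to 2 calls for young against fetal, 0 to 0 for 0 doses against young, 0 to 3 for 10 young, 1 to 1 for 10 old and 0 to 2 for 500 old cells; in groups left with 1 library, that library is assumed to vary like the others. The labels' replicate numbers did not pair the libraries (correlations of deviations -0.07 to 0.05), and a replicate block gave 0 calls for 0 doses against young (0% of all tiles) and kept every other count of calls within 1.5 times.

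The locus level moved by more than the spread of replicates in some groups. Over all CpGs of a library with 5 reads it was 75.02% in fetal, 67.7% in young, 73.1% with 0 doses, 74.2% with 2 doses, 63.0% with 50 young and 63.4% with 50 old HSCs. As the mean of CpG levels it was 72.8% in fetal, 71.5% with 0 doses, 60.1% with 10 young and 59.4% with 50 young HSCs. At 10 reads per CpG it was 70.7% in young and 68.4% with 2 doses.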
